A study of Saccharomyces paradoxus and Saccharomyces cerevisiae and Nakaseomyces glabratus with 58 samples.

Results

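The genes described here are SFP1 (YLR403W) and 9 other regulators of ribosomal genes in yeast: IFH1 (YLR223C), FHL1 (YPR104C), RAP1 (YNL216W), CRF1 (YDR223W), SCH9 (YHR205W), STB3 (YDR169C), DOT6 (YER088C), TOD6 (YBL054W) and HMO1 (YDR174W). In S. cerevisiae they were taken by name. In the other 5 species they were the rows whose orthogroup, in the orthology table deposited with the data, holds a gene of these 10. This gave 56 of the 36369 rows of the count tables, namely 10 in S. cerevisiae, 10 in S. paradoxus, 10 in C. glabrata, 12 in N. castellii, 7 in K. lactis and 7 in S. pombe, and all 56 passed the filter on low counts. IFH1 and CRF1 share an orthogroup, and so do DOT6 and TOD6. A row of another species in such an orthogroup therefore carries both names, and no name was chosen for it here.

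Sfp1 is a zinc finger transcription factor that, in S. cerevisiae, enters the nucleus in well fed cells and raises the transcription of ribosomal protein and ribosome biogenesis genes. Rap1, Fhl1, Ifh1 and Hmo1 sit together on ribosomal protein promoters, where Ifh1 is the coactivator that binds Fhl1 and Crf1 is a corepressor that can take its place. The kinases TORC1 and Sch9 carry the nutrient signal, and Stb3, Dot6 and Tod6 repress ribosome biogenesis genes when nutrients run short.

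Polyadenylated RNA was sequenced in 25-base paired reads from 6 species grown in a medium that the labels abbreviate as BMW. Cells at log phase were taken at an optical density between 0.6 and 0.8, and those in lag phase 30 or 60 min after the return of glucose. The altered strains were S. cerevisiae delta sfp1 and a strain with HA-tagged Sfp1, S. paradoxus delta sfp1, C. glabrata delta CAGL0M09955g and delta CAGL0D00682g, N. castellii delta Scas551.1 and delta Scas719.24, K. lactis delta sfp1 and S. pombe libraries labelled delta sfp1. Each species had its own wild type, and S. paradoxus deletion and wild type strains were sampled at log phase, 30 min and 60 min. The 19 groups had 3 libraries each, lettered A to C. The labels do not say whether these were separate cultures, so the p-values below measure the spread between libraries only, and the number of isolates behind each deletion strain is not given in the sources used here.

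Total counts per library ran from 712972 to 3447874 at log phase and from 418292 to 640282 in lag phase, except for S. paradoxus deletion replicate A at 30 min, which held 34081. Results at 30 min whose call changed without that library are given both ways. Levels are CPM, counts scaled to a common library total, on TMM-scaled library sizes, with the SD over 3 libraries. Fold changes are log2 values of altered strain over wild type, followed by ± their standard error. They come from edgeR's quasi-likelihood test, and a gene is said to have risen or fallen where its Benjamini-Hochberg adjusted p over all genes of the species was below 0.05.

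Libraries also differed in ways that touch the results below. In the S. cerevisiae deletion, 341 of 382 tested genes on chromosome II rose and 13 fell, with a median log2 fold change of 0.94. In the S. paradoxus deletion, the 352 genes whose IDs carry the number 2 had medians of 0.70 at log phase, 0.64 at 30 min and 0.58 at 60 min, and 227 of 228 such rows with a single S. cerevisiae ortholog had it on chromosome II. DNA copy number was not measured. Mating type markers differed as well. In S. cerevisiae, 4 of 6 a marker rows fell, with a summed level of 935 to 975 CPM in the deletion and 1626 to 1668 CPM in wild type, the alpha marker sum was 80.3 to 90.2 CPM in the deletion and 32.1 to 41.0 CPM in wild type, and MATALPHA1 was at 0 in all libraries. The part of this in the S. cerevisiae results was not tested. In S. paradoxus at log phase, STE2, the receptor for alpha factor and a mark of a-type cells, averaged 13.8 ± 2.4 CPM in the deletion and 621 ± 19.8 CPM in wild type, while STE3, a mark of alpha cells, averaged 473 ± 41 CPM in the deletion and 5.8 ± 2.1 CPM in wild type. All 5 alpha marker rows rose there, with a summed level of 3405 to 3879 CPM in deletion libraries and 30.9 to 35.9 CPM in wild type libraries, and MATALPHA1 was at 0 in wild type. Of the a marker rows, 2 rose and 5 fell of 8 tested. STE3 was high in the wild type lag libraries too, at 323 ± 29.9 CPM at 30 min and 351 ± 36.5 CPM at 60 min. The summed alpha level in lag phase was 3234 to 4126 CPM in the deletion and 979 to 1166 CPM in wild type. The summed a level, which counts several rows of the BAR1 orthogroup, was 833 to 1061 CPM in the deletion and 509 to 566 CPM in wild type. At 30 and 60 min, STE2 averaged 21.3 ± 20.2 and 13.95 ± 6.1 CPM in the deletion, against 16.6 ± 8.0 and 14.02 ± 3.7 CPM in wild type. STE6 averaged 13.8 ± 12.7 and 22.5 ± 2.7 CPM in the deletion, against 6.6 ± 4.2 and 13.3 ± 5.4 CPM in wild type. In C. glabrata the a sums, which also count several rows of the BAR1 orthogroup, were 310 to 338 CPM in delta CAGL0M09955g and 265 to 298 CPM in delta CAGL0D00682g, against 279 to 297 CPM in wild type. STE2 averaged 17.9 ± 2.2 and 18.3 ± 2.5 CPM in these deletions and 18.2 ± 2.5 CPM in wild type. STE6 averaged 7.1 ± 1.6, 6.9 ± 1.3 and 7.1 ± 0.6 CPM in the same order. The part of the marker levels in the lag phase and C. glabrata results was not tested. At log phase in S. paradoxus, the deletion and the mating type thus cannot be told apart, nor can lag phase and mating type in the wild type. In bulk RNA, fewer cells of a kind and less RNA per cell cannot be told apart either.

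Promoters of 4 of the regulators are shown, those of the repressor genes TOD6, DOT6 and STB3 and of the kinase gene SCH9. Each holds letters that Stb3, Dot6 or Tod6 are known to bind. RAP1, which also holds an RRPE core, is not shown. Each line gives the 250 bases before the start codon, on the coding strand, from the S. cerevisiae R64 genome of RefSeq. Capitals mark GATGAG, the core of the PAC element bound by Dot6 and Tod6, AAATTTT, the core of the RRPE element bound by Stb3, and AGGGG, the stress response element bound by Msn2 and Msn4, on either strand, with overlapping matches of 1 motif merged.
TOD6, chrII:117339-117588, plus strand: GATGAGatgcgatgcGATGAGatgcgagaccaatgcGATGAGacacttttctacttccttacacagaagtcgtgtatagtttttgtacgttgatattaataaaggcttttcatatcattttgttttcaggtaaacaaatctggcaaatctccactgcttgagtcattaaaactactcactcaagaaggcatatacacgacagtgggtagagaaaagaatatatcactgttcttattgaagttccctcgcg
DOT6, chrV:335189-335438, minus strand: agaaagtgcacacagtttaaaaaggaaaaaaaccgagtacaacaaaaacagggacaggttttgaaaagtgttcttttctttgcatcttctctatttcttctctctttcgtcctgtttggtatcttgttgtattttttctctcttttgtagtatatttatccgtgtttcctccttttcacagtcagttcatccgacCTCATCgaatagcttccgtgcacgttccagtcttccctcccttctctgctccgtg
STB3, chrIV:793890-794139, minus strand: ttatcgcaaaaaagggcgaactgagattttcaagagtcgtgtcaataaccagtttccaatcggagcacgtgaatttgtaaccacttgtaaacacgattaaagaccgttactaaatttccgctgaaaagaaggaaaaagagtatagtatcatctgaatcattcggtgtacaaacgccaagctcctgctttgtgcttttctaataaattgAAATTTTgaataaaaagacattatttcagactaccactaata
SCH9, chrVIII:509113-509362, plus strand: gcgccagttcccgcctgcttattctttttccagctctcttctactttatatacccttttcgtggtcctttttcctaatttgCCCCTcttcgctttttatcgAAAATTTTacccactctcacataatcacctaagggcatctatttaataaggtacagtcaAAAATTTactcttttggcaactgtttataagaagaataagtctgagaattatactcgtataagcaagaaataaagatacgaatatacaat

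The TOD6 window held 3 PAC cores and the DOT6 window 1, whereas the other 8 regulators had none, and 17% of the 6007 windows of this length held at least 1. RRPE cores stood in the windows of STB3, SCH9 and RAP1, against 21.7% of all windows. The stress response element stood in SCH9 alone of the 10, against 18.8% of all windows. CCCATAC, the core of the Rap1 motif, was in none of the 10 windows and in 1.53% of all. A match describes these letters only, and no binding was measured.

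SFP1 was first read in every strain, since it checks the labels. In the S. cerevisiae deletion it had 0 counts over 3 libraries, against 561 counts in wild type, which is at least 257-fold lower when the deletion is set at a floor of 3 counts over the group. The HA-tagged strain kept it, at 89.7, 87.2 and 66.4 CPM, against 75.1, 87.6 and 81.2 CPM in wild type. These ranges overlapped. The S. paradoxus deletion held 2 counts at log phase, against 675 in wild type, which is 0.201% of the wild type level with a 95% interval of 0.0243% to 0.728% that covers counting error only. It held 0 counts at 30 min and at 60 min, against 258 and 221 counts in wild type, so it was at least 58.5-fold lower and at least 80.9-fold lower. The K. lactis deletion had 0 counts, against 1006 in wild type, at least 363-fold lower.

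C. glabrata and N. castellii each carry 2 SFP1 paralogs, and each strain lost 1 of them. In C. glabrata delta CAGL0M09955g the deleted gene had 0 counts, against 290 in wild type, at least 110.5-fold lower. Its paralog CAGL0D00682g had 47.3, 45.2 and 56.8 CPM there, against 36.8, 35.7 and 45.1 CPM in wild type. Every deletion library was above every wild type library, and the paralog rose by 0.34 ± 0.13 on the log2 scale (adjusted p = 0.0311). That call ended in 3 of the 6 fits that left out a library, those without wild type A, wild type B or deletion C, and with DESeq2, where the adjusted p was 0.185. In delta CAGL0D00682g the deleted gene had 0 counts, against 265 in wild type, at least 96.7-fold lower, and CAGL0M09955g had a log2 fold change of 0.04 ± 0.13 that did not pass the test.

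The labels name the N. castellii deletions in an older gene numbering. In delta Scas551.1 it was NCAS0A02570 that was nearly gone, with 5 counts against 632 in wild type, or 1.27% of the wild type level (95% interval 0.411% to 2.98%, counting error only). In delta Scas719.24 it was NCAS0J01590, with 0 counts against 221 in wild type, at least 70.2-fold lower. The paralog left in place did not pass the test in either strain. Its log2 fold change was 0.16 ± 0.16 for NCAS0J01590 in delta Scas551.1 and -0.07 ± 0.11 for NCAS0A02570 in delta Scas719.24.

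The S. pombe libraries labelled delta sfp1 still held sfp1 (SPAC16.05c) reads. Its counts were 98, 106 and 22 in the libraries labelled deletion and 169, 100 and 134 in wild type, which gave 45.6, 45.4 and 30.4 CPM in those labelled deletion and 90.7, 64.7 and 71.4 CPM in wild type. The groups did not overlap, and the pooled level was 57.0% of wild type (95% interval 48.2% to 67.2%, counting error only). The gene fell by 0.83 ± 0.17 on the log2 scale (adjusted p = 0.0154), a call that ended without deletion library A (0.0572) or B (0.0532). In the authors' deposited table, whose sign was turned to altered over wild type, the microarray log ratios of sfp1 were -7.62 at 30 min, -8.07 at 60 min and -7.50 at 90 min. The sequenced S. pombe libraries therefore went against their label, and directions in them are given as those of the libraries labelled deletion. Whether strand was used in counting is not given in the sources used here, so antisense reads would be counted with the gene.

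**Figure D1:**
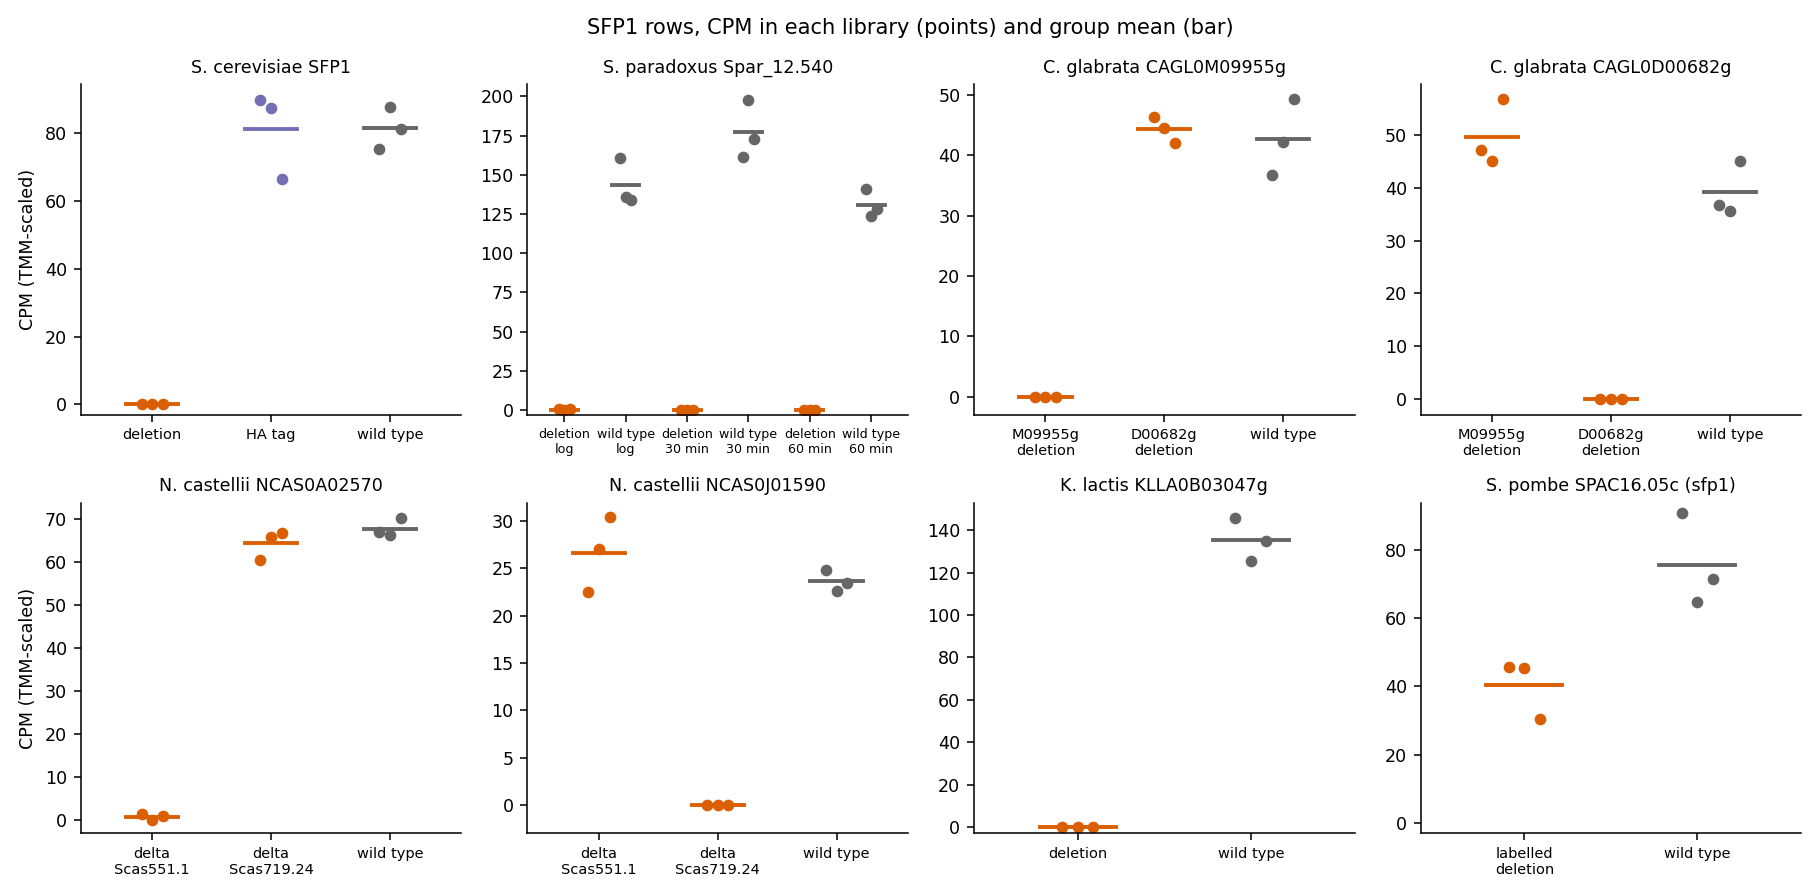
SFP1 level in CPM (y axis), 1 point per library and a bar at each group mean, in 1 panel per SFP1 row, with altered strains left of wild type. The deleted genes lie at or near 0 in all species but S. pombe, where the libraries labelled deletion lie between 30.4 and 45.6 CPM and the wild type libraries between 64.7 and 90.7 CPM.

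Beside SFP1 itself, changes among the regulators were mostly small. Each count is given beside the share of all genes that passed in the same comparison. In the S. cerevisiae deletion, 4 of the other 9 regulators passed the test (3 rose, 1 fell), where 52.1% of all 5826 genes tested did (26% rose, 26% fell). In HA-tagged S. cerevisiae, 0 of 10 regulators and 0 of 5826 genes (0%) passed with edgeR. Before adjustment 318 genes (5.46%) were below 0.05, and 3 genes passed with DESeq2. In S. paradoxus, 2 of the other 9 rows passed at log phase (2 fell), 4 at 30 min (2 rose, 2 fell) and 5 at 60 min (5 rose). Of all 4908 genes, 57.4% passed at log phase (24.8% rose, 32.6% fell), 52.9% at 30 min (28.3% rose, 24.6% fell) and 50.8% at 60 min (25.7% rose, 25% fell).

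In C. glabrata delta CAGL0M09955g, 5 of the 9 rows other than the deleted gene passed (2 rose, 3 fell), against 33.6% of 4760 genes (15% rose, 18.6% fell), while in delta CAGL0D00682g 0 of 9 did, against 0.567% (0.378% rose, 0.189% fell). In N. castellii, 3 of 11 rows passed in delta Scas551.1 (2 rose, 1 fell) and 2 of 11 in delta Scas719.24 (2 fell). Of all 5338 genes, 41.8% passed in delta Scas551.1 (21.4% rose, 20.4% fell) and 26.1% in delta Scas719.24 (14.8% rose, 11.3% fell). In K. lactis, 2 of the other 6 rows rose, where 66.4% of 4941 genes passed (33.1% rose, 33.3% fell). In the S. pombe libraries labelled deletion 1 of the other 6 fell, where 10% of 5296 genes passed (3.19% rose, 6.82% fell). Counting SFP1, the median log2 fold change of the regulators lay between -0.04 and 0.13 in all of these but 1, beside medians over all genes between -0.05 and 0.13. The exception was S. paradoxus at 60 min, at 0.39 beside 0.04.

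**Figure D2:**
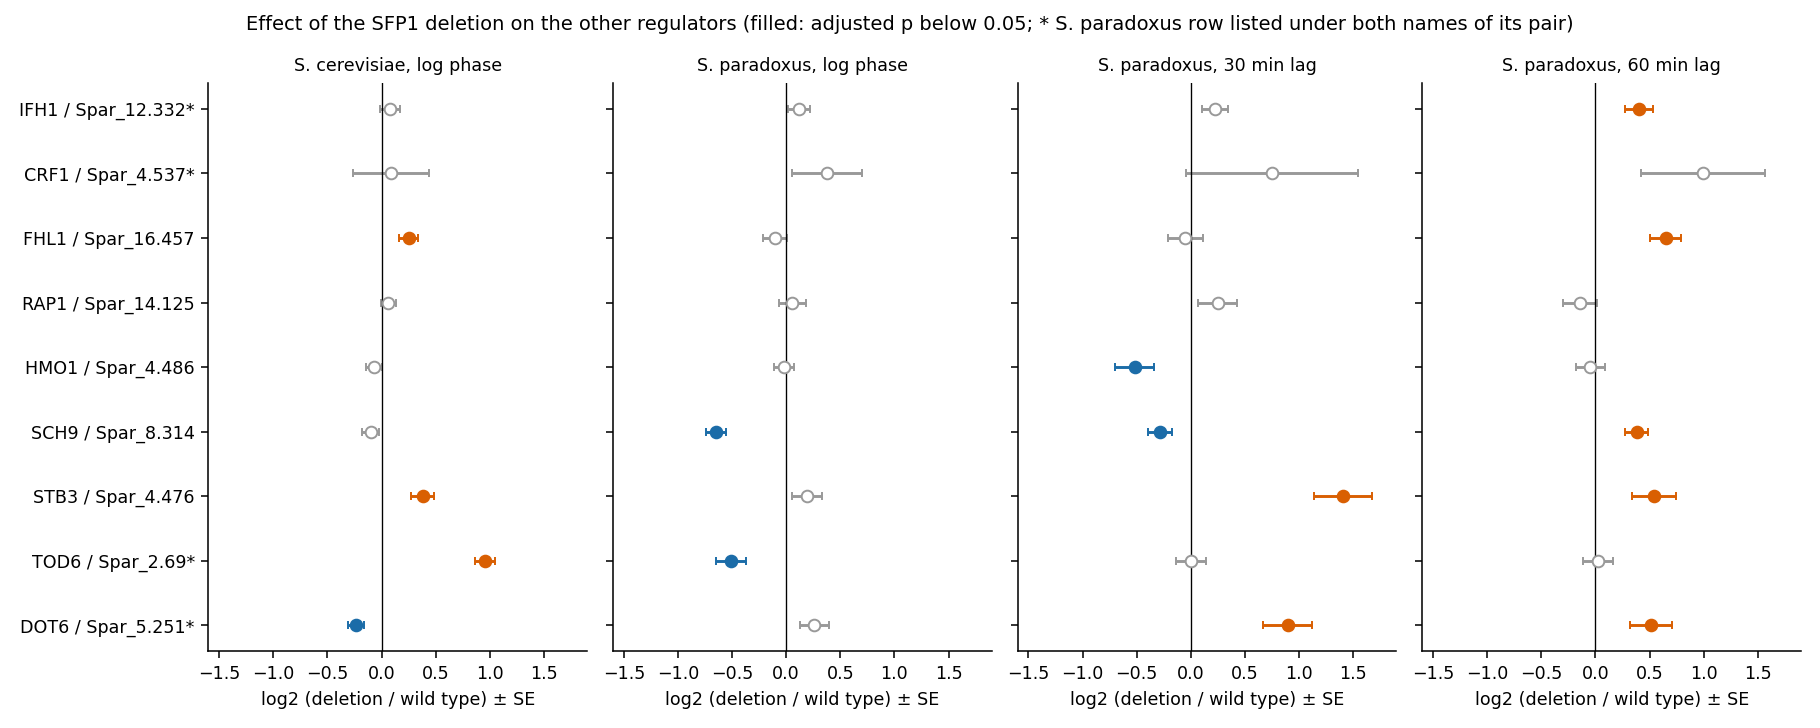
Log2 fold change, deletion over wild type, of each regulator other than SFP1 (x axis, with standard errors), in S. cerevisiae delta sfp1 and in S. paradoxus delta sfp1 at log phase, 30 min and 60 min; filled points passed the test. Starred S. paradoxus rows carry both names of their pair and are set beside the S. cerevisiae gene on the chromosome whose number their ID carries. TOD6 has the largest S. cerevisiae value at 0.96, and STB3 the largest S. paradoxus value at 1.40 at 30 min.

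Among the genes of the proteins that sit on ribosomal protein promoters, FHL1, which encodes the forkhead protein that recruits Ifh1, passed in 4 of these comparisons. In S. cerevisiae it had 120, 101 and 117 CPM in the deletion, against 98.3, 98.9 and 88.6 CPM in wild type. The groups did not overlap, and FHL1 rose by 0.25 ± 0.09 (adjusted p = 0.023). The call ended without deletion A, deletion C or wild type C, and with DESeq2 (0.112). In K. lactis, FHL1 (KLLA0F08206g) had 91.2, 93.6 and 108 CPM in the deletion, against 82.0, 79.3 and 84.0 CPM in wild type. These did not overlap either, and the row rose by 0.25 ± 0.08 (adjusted p = 0.0089), again not with DESeq2 (0.0583) and not without deletion C (0.0798).

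In C. glabrata delta CAGL0M09955g, FHL1 (CAGL0G01782g) went the other way, with 88.0, 76.6 and 83.8 CPM, against 95.8, 99.9 and 103 CPM in wild type. All 3 deletion libraries were below all 3 wild type libraries, and it fell by 0.27 ± 0.09 (adjusted p = 0.0137). The call ended without deletion B, without wild type C and with DESeq2 (0.0777), and on library size alone the value was -0.11. Against delta CAGL0D00682g, with 115, 103 and 96.2 CPM, it fell by 0.34 ± 0.09 (adjusted p = 0.00152; 29.5% of genes passed in that comparison), not on library size alone (0.125). In N. castellii, S. pombe and S. paradoxus at log phase, FHL1 values were between -0.10 and 0.10 and did not pass.

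IFH1, the coactivator, did not pass in S. cerevisiae, at 173, 144 and 178 CPM in the deletion and 160, 150 and 162 CPM in wild type, nor did CRF1, the corepressor, at 7.84, 5.26 and 10.7 CPM in the deletion and 8.52, 9.21 and 5.10 CPM in wild type. In each species with 2 SFP1 paralogs, a row of this orthogroup fell in at least 1 deletion. CAGL0C00759g had 82.9, 83.7 and 74.4 CPM in delta CAGL0M09955g and 113, 110 and 109 CPM in wild type. It fell by 0.46 ± 0.09 (adjusted p = 1.01e-05) with no overlap, and kept that call in all 12 other settings tried. In delta CAGL0D00682g it had 86.7, 88.4 and 94.1 CPM, also below all wild type libraries, but its log2 fold change of -0.30 ± 0.08 did not pass (adjusted p = 0.0816).

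N. castellii has 2 rows in the IFH1 and CRF1 orthogroup, and they differed. NCAS0C02760 had 131, 122 and 116 CPM in delta Scas551.1 and 167, 176 and 177 CPM in delta Scas719.24, against 191, 216 and 223 CPM in wild type. None of the 3 groups overlapped. The row fell by 0.77 ± 0.09 in delta Scas551.1 (adjusted p = 2.05e-07) and by 0.27 ± 0.08 in delta Scas719.24 (adjusted p = 0.0137, ended without wild type C at 0.0869), and delta Scas551.1 was lower than delta Scas719.24 by -0.50 ± 0.09 (adjusted p = 0.000182; 24.1% of genes passed there; the call ended on library size alone). The lower row, NCAS0B02780, had 14.7, 16.02 and 21.4 CPM in delta Scas551.1, against 11.3, 12.6 and 7.92 CPM in wild type, and rose by 0.68 ± 0.23 (adjusted p = 0.018), not with DESeq2 (0.0502) and not without deletion C or wild type C.

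Mating type markers differed between the same N. castellii groups. STE2 averaged 48.1 ± 3.3 CPM in delta Scas551.1 and 45.5 ± 3.4 CPM in delta Scas719.24, against 4.5 ± 0.8 CPM in wild type. STE3 averaged 1.41 ± 0.73 and 0.56 ± 0.19 CPM in those deletions, against 64.3 ± 2.7 CPM in wild type. All 4 tested alpha marker rows fell in both, the summed alpha level was 24.2 to 30.6 and 22.9 to 32.8 CPM in the deletions and 803 to 1004 CPM in wild type, and 2 of 6 alpha rows, MATALPHA1 among them, were at 0 in both deletions. Deletion and mating type cannot be told apart in these comparisons. In delta Scas551.1 against delta Scas719.24, 2 of 7 a marker rows rose, 1 fell (STE6, at 67.7 ± 4.6 CPM and 96.8 ± 7.2 CPM) and 0 of 4 tested alpha rows passed, and their part in the differences between the deletions was not tested.

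**Figure D3:**
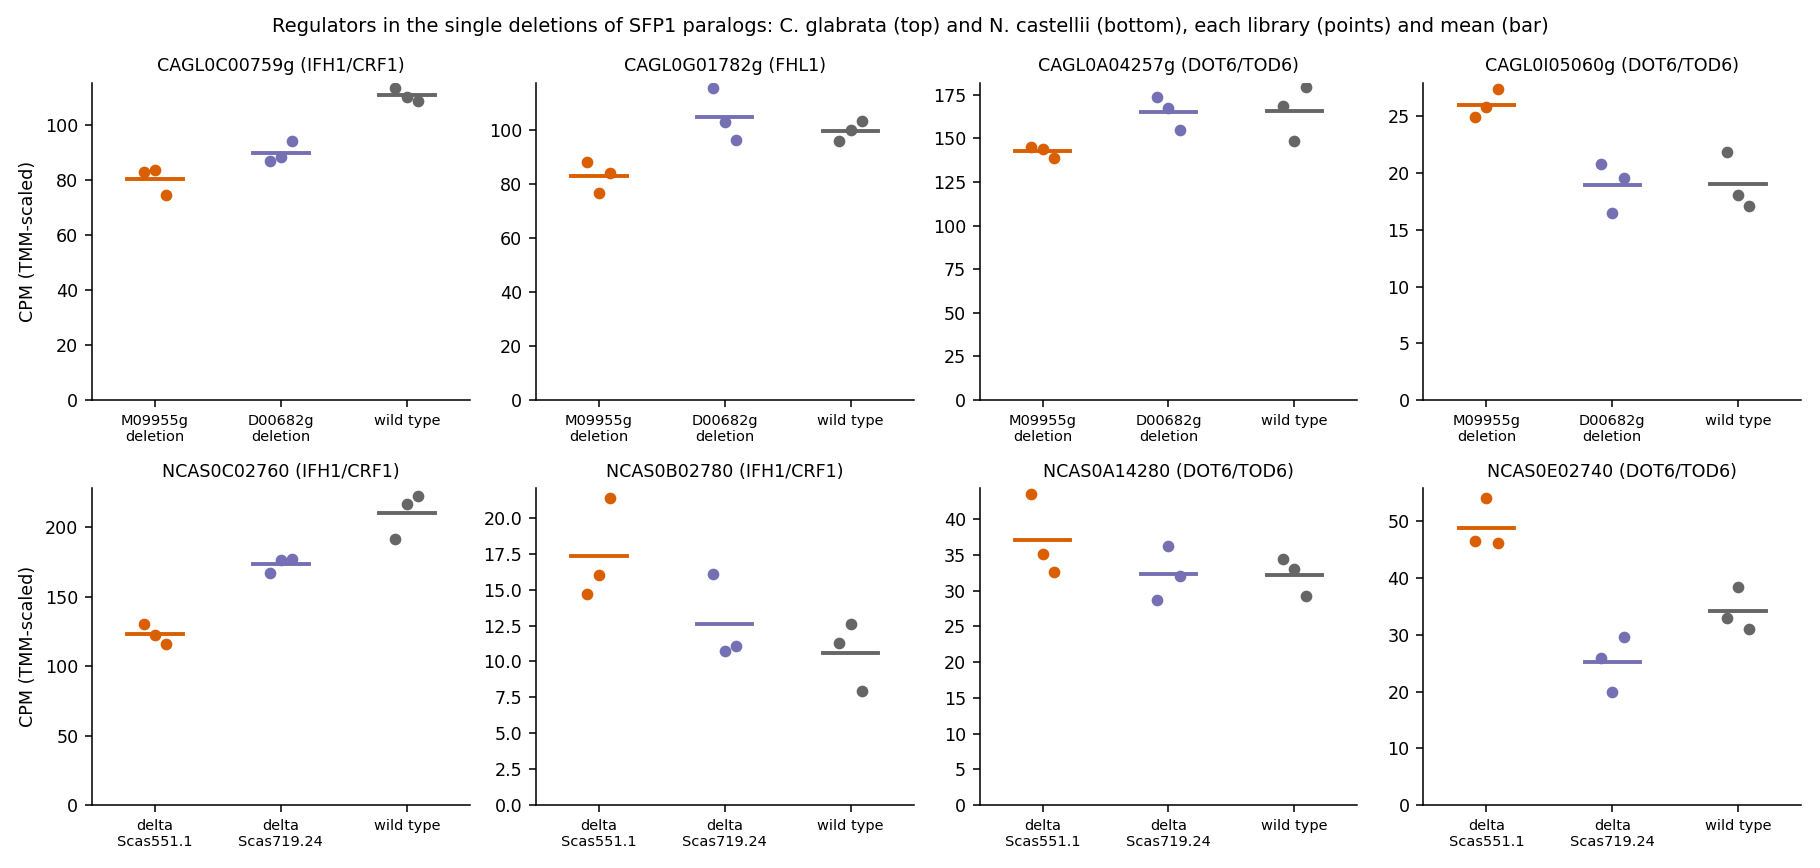
CPM (y axis) of the IFH1 and CRF1 rows, the DOT6 and TOD6 rows and C. glabrata FHL1, 1 point per library, with the deletion strains left of wild type and a bar at each mean. CAGL0C00759g averages 80.3 CPM in delta CAGL0M09955g and 111 CPM in wild type, and NCAS0C02760 averages 123 CPM in delta Scas551.1, 173 CPM in delta Scas719.24 and 210 CPM in wild type.

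RAP1, the DNA-binding protein under this complex, and HMO1, the high mobility group protein bound beside it, passed in 1 of these log phase comparisons between them. RAP1 rose in K. lactis (KLLA0D19294g), with 140, 129 and 131 CPM in the deletion, against 113, 120 and 118 CPM in wild type. The groups did not overlap, and the log2 fold change was 0.19 ± 0.06 (adjusted p = 0.0122), ended by DESeq2 (0.107) and without deletion A or wild type A. Both alpha marker rows of K. lactis, STE3 and MATALPHA1, rose in the deletion too, at a summed 53.2 to 61.3 CPM against 18.4 to 22.5 CPM in wild type, while of 3 tested a marker rows STE6 rose, at 73.9 ± 4.0 CPM in the deletion and 44.5 ± 1.1 CPM in wild type, and STE2 fell. The part of this in the K. lactis calls was not tested. In the deletions of the other species and the S. pombe libraries labelled deletion, RAP1 values at log phase were between -0.02 and 0.30 and did not pass. The highest was in S. pombe, where the row is rap1, annotated as a telomere-binding protein. HMO1 values at log phase were between -0.15 and 0.17 in the 5 species that have it, and none passed.

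SCH9, the kinase that passes the TORC1 signal on to ribosome synthesis, passed in S. paradoxus and, in 1 of its 2 rows, in S. pombe. In S. cerevisiae it had 121, 109 and 114 CPM in the deletion and 137, 114 and 123 CPM in wild type, which overlapped. In S. paradoxus at log phase, Spar_8.314 had 187, 155 and 159 CPM in the deletion, against 279, 247 and 262 CPM in wild type. All deletion libraries were lower, and SCH9 fell by 0.65 ± 0.09 (adjusted p = 3.72e-07), a call kept without each library in turn and ended on library size alone, where the value was -0.14. S. pombe has 2 SCH9 rows. That of sck2 (SPAC22E12.14c) had 34.0, 39.0 and 30.4 CPM in the libraries labelled deletion, against 66.0, 46.5 and 51.7 CPM in wild type, and fell by 0.64 ± 0.17 (adjusted p = 0.0428), a call that ended in 5 of 6 fits with a library left out, with 4 of 5 other settings, and that kept its direction in all. In C. glabrata, N. castellii and K. lactis, SCH9 values were between -0.02 and 0.18 and did not pass. The other S. pombe row, sck1 (SPAC1B9.02c), had a log2 fold change of 0.05 ± 0.11.

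The repressors moved in opposite directions in S. cerevisiae. STB3, which binds RRPE elements, had 69.0, 55.5 and 62.8 CPM in the deletion, against 54.2, 45.7 and 47.0 CPM in wild type. Every deletion library was above every wild type library, and STB3 rose by 0.38 ± 0.11 (adjusted p = 0.00721), not with DESeq2 (0.0572) and not without wild type B (0.0507). DOT6 had 187, 190 and 176 CPM in the deletion, against 216, 230 and 204 CPM in wild type. It fell by 0.24 ± 0.08 (adjusted p = 0.0165) with no overlap, a call that ended without deletion C or wild type B and on library size alone, where the value was -0.01.

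TOD6, the paralog of DOT6, had 76.2, 84.2 and 72.8 CPM in the S. cerevisiae deletion, against 41.0, 37.9 and 41.6 CPM in wild type. The deletion libraries were all far above the wild type libraries, and TOD6 rose by 0.96 ± 0.09 (adjusted p = 2.26e-07). TOD6 lies on chromosome II, at chrII:117589-119166 of R64, and its value was close to the chromosome's median of 0.94. When the chromosome II level of each deletion library was brought to that of the other chromosomes, a setting added after seeing the data, TOD6 had a log2 fold change of 0.01 (adjusted p = 0.96). In the authors' deposited table, with the sign turned to altered over wild type, TOD6 stood at 0.01 and the 374 chromosome II genes listed had a median of -0.02. On the microarrays in the authors' deposited table, at 15 to 90 min rather than log phase, the chromosome II medians were between 0.012 and 0.073. TOD6 was between -0.24 and 0.50 in the authors' deposited table.

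**Figure D4:**
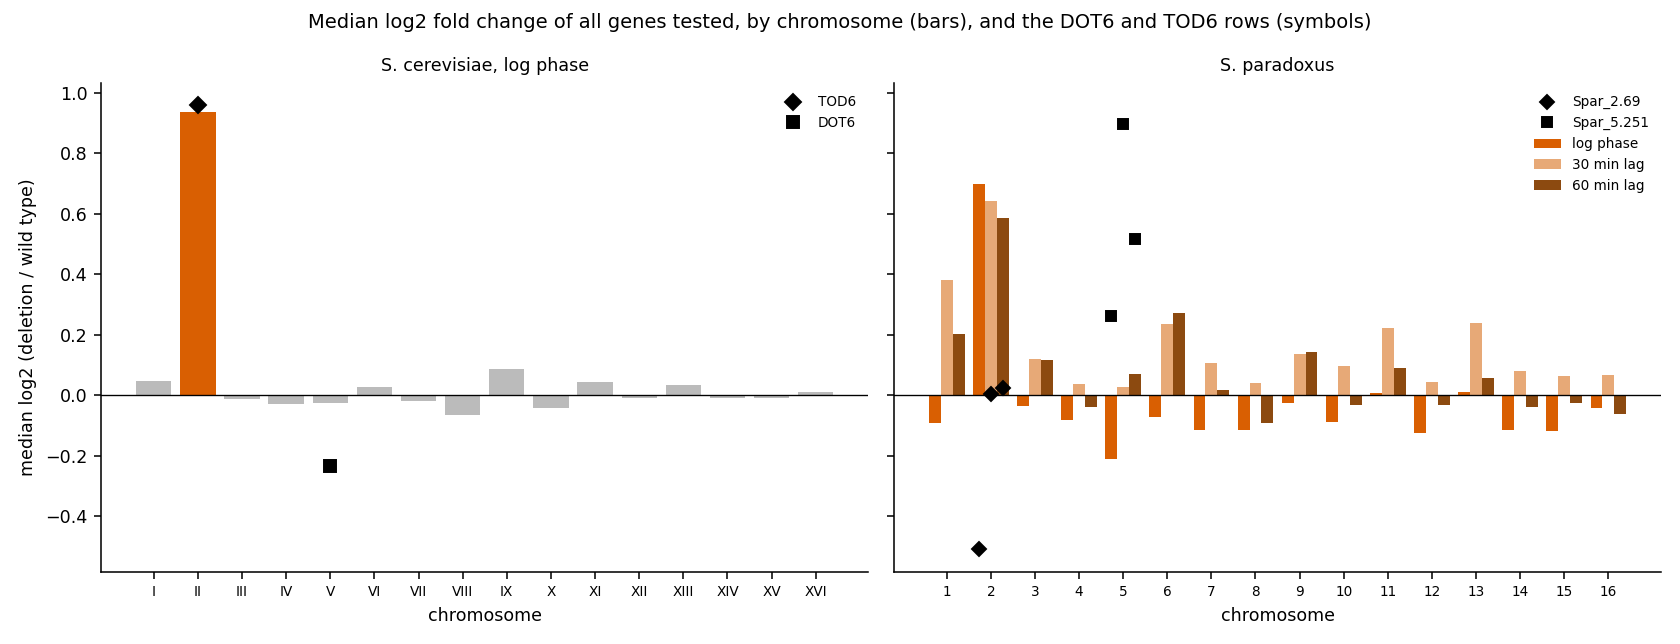
Median log2 fold change, deletion over wild type, of the genes tested on each chromosome (bars), in S. cerevisiae at log phase and in S. paradoxus at log phase, 30 min and 60 min; symbols are the DOT6 and TOD6 rows. Chromosome II stands at 0.94 in S. cerevisiae and chromosome 2 at 0.58 to 0.70 in S. paradoxus; TOD6 lies at its bar's height and Spar_2.69 below its bars.

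In S. paradoxus the DOT6 and TOD6 orthogroup has a row on the chromosome numbered 2, Spar_2.69, and Spar_5.251. At log phase Spar_2.69 had 59.5, 70.2 and 51.5 CPM in the deletion, against 89.1, 87.6 and 78.3 CPM in wild type, below all of them, and fell by 0.51 ± 0.14 (adjusted p = 0.00181), although its chromosome's median was 0.70. The call ended on library size alone, where the value was -0.01. At 30 and 60 min its values of 0.00 ± 0.14 and 0.02 ± 0.14 did not pass. With the chromosome level corrected they became -0.60 (adjusted p = 0.000417) and -0.56 (adjusted p = 0.00123). The authors' deposited table, with the sign turned, has -1.17 at log phase, -0.61 at 30 min and -0.43 at 60 min for this row. In the authors' deposited table, genes of the chromosome numbered 2 had medians of 0.041, 0.011 and 0.067 at these times.

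DOT6 and TOD6 rows also passed in C. glabrata delta CAGL0M09955g and in both N. castellii deletions. In delta CAGL0M09955g, CAGL0I05060g had 24.9, 25.8 and 27.4 CPM, against 21.9, 18.1 and 17.1 CPM in wild type, and rose by 0.46 ± 0.16 (adjusted p = 0.0235). CAGL0A04257g had 145, 144 and 139 CPM there, against 168, 149 and 180 CPM in wild type, and fell by 0.22 ± 0.07 (adjusted p = 0.0191). Neither pair of groups overlapped, and both calls ended with DESeq2 (0.135 and 0.0832) and in 3 of 6 fits without a library. That of CAGL0A04257g also ended on library size alone, at -0.055 (adjusted p = 0.656). Against delta CAGL0D00682g, the same rows had log2 differences of 0.46 ± 0.16 and -0.21 ± 0.07, which passed but not with DESeq2 (0.147 and 0.0902) and not in 3 of 6 fits without a library, the second also not on library size alone.

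In N. castellii, NCAS0E02740 had 46.5, 54.1 and 46.1 CPM in delta Scas551.1 and 26.0, 20.0 and 29.7 CPM in delta Scas719.24, against 32.9, 38.4 and 31.0 CPM in wild type. The wild type libraries lay between those of the deletions, without overlap. The row rose by 0.52 ± 0.14 in delta Scas551.1 (adjusted p = 0.00511) and fell by 0.43 ± 0.15 in delta Scas719.24 (adjusted p = 0.0324, ended with DESeq2 at 0.072 and in 4 of 6 fits without a library). The difference between the deletions was 0.95 ± 0.15 (adjusted p = 4.06e-05) and passed in all 12 other settings tried. The other row, NCAS0A14280, did not pass in any of these. The N. castellii STB3 rows, NCAS0B03290 and NCAS0C03060, averaged between 8.8 and 15.3 CPM in every group and did not pass, nor did the STB3 rows of C. glabrata, K. lactis and S. pombe, at 0.11 ± 0.17, 0.13 ± 0.08 and -0.18 ± 0.26.

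S. paradoxus was sampled at log phase and at 30 and 60 min of lag phase, and no library from just before the return of glucose was analysed here. In wild type, SFP1 (Spar_12.540) had 161, 136 and 134 CPM at log phase, 162, 198 and 172 CPM at 30 min and 141, 124 and 128 CPM at 60 min. Its highest mean was at 30 min, 0.32 ± 0.12 above log phase (adjusted p = 0.0309; 55.9% of genes passed in that comparison), and at 60 min it was lower than at 30 min by -0.45 ± 0.14 (adjusted p = 0.0138; 36.6%). Log phase and 60 min overlapped and did not differ by the test (-0.13 ± 0.13; 40.3%). The rise at 30 min ended with DESeq2 (0.0515), on library size alone (0.093) and without wild type log phase B or C or 30 min B. The lower level at 60 min ended on library size alone (0.157) and without 30 min B or 60 min B. The wild type cells at log phase and in lag phase differed in mating type markers as given above. At 60 over 30 min in wild type, 1 of 8 tested a marker rows rose and 1 fell, and 0 of 5 alpha marker rows passed, with SAG1 at 178 ± 6.0 CPM at 60 min and 133 ± 18.2 CPM at 30 min (adjusted p = 0.0531). The part of this was not tested.

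Spar_12.332, SCH9 and Spar_2.69 also had their highest wild type mean at 30 min. Spar_12.332, of the IFH1 and CRF1 orthogroup, had 166, 154 and 160 CPM at log phase, 381, 357 and 305 CPM at 30 min and 195, 164 and 146 CPM at 60 min in wild type. SCH9 had 279, 247 and 262 CPM, then 555, 553 and 567 CPM, then 287, 247 and 316 CPM. In both genes every library at 30 min was above every library at log phase, and the 60 min libraries overlapped log phase again. The log2 changes at 30 min over log phase were 1.12 ± 0.11 (adjusted p = 2.9e-10) and 1.09 ± 0.10 (adjusted p = 1.4e-11). Spar_2.69 had the largest change, with 89.1, 87.6 and 78.3 CPM at log phase, 422, 406 and 295 CPM at 30 min and 179, 184 and 236 CPM at 60 min, up by 2.13 ± 0.13 at 30 min (adjusted p = 2.47e-15).

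HMO1 and STB3 went the other way at 30 min in wild type. HMO1 (Spar_4.486) had 167, 182 and 176 CPM at log phase, 116, 110 and 137 CPM at 30 min and 125, 130 and 150 CPM at 60 min, and fell by 0.54 ± 0.13 at 30 min (adjusted p = 0.000452). STB3 (Spar_4.476) had 51.8, 51.7 and 53.0 CPM, then 28.9, 29.3 and 43.6 CPM, then 45.3, 58.5 and 66.0 CPM, and fell by 0.62 ± 0.23 at 30 min (adjusted p = 0.0245), not with DESeq2 (0.0652) and not without 30 min A or B. No wild type library at 30 min reached the log phase range in either gene. In all, 7 of 10 rows passed at 30 min over log phase (5 rose, 2 fell; 25.1% of all genes rose, 30.8% fell). At 60 min over log phase 3 of 10 did (2 rose, 1 fell; 19.5% of all genes rose, 20.8% fell), and at 60 over 30 min 6 of 10 (1 rose, 5 fell; 16.7% of all genes rose, 19.8% fell).

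**Figure D5:**
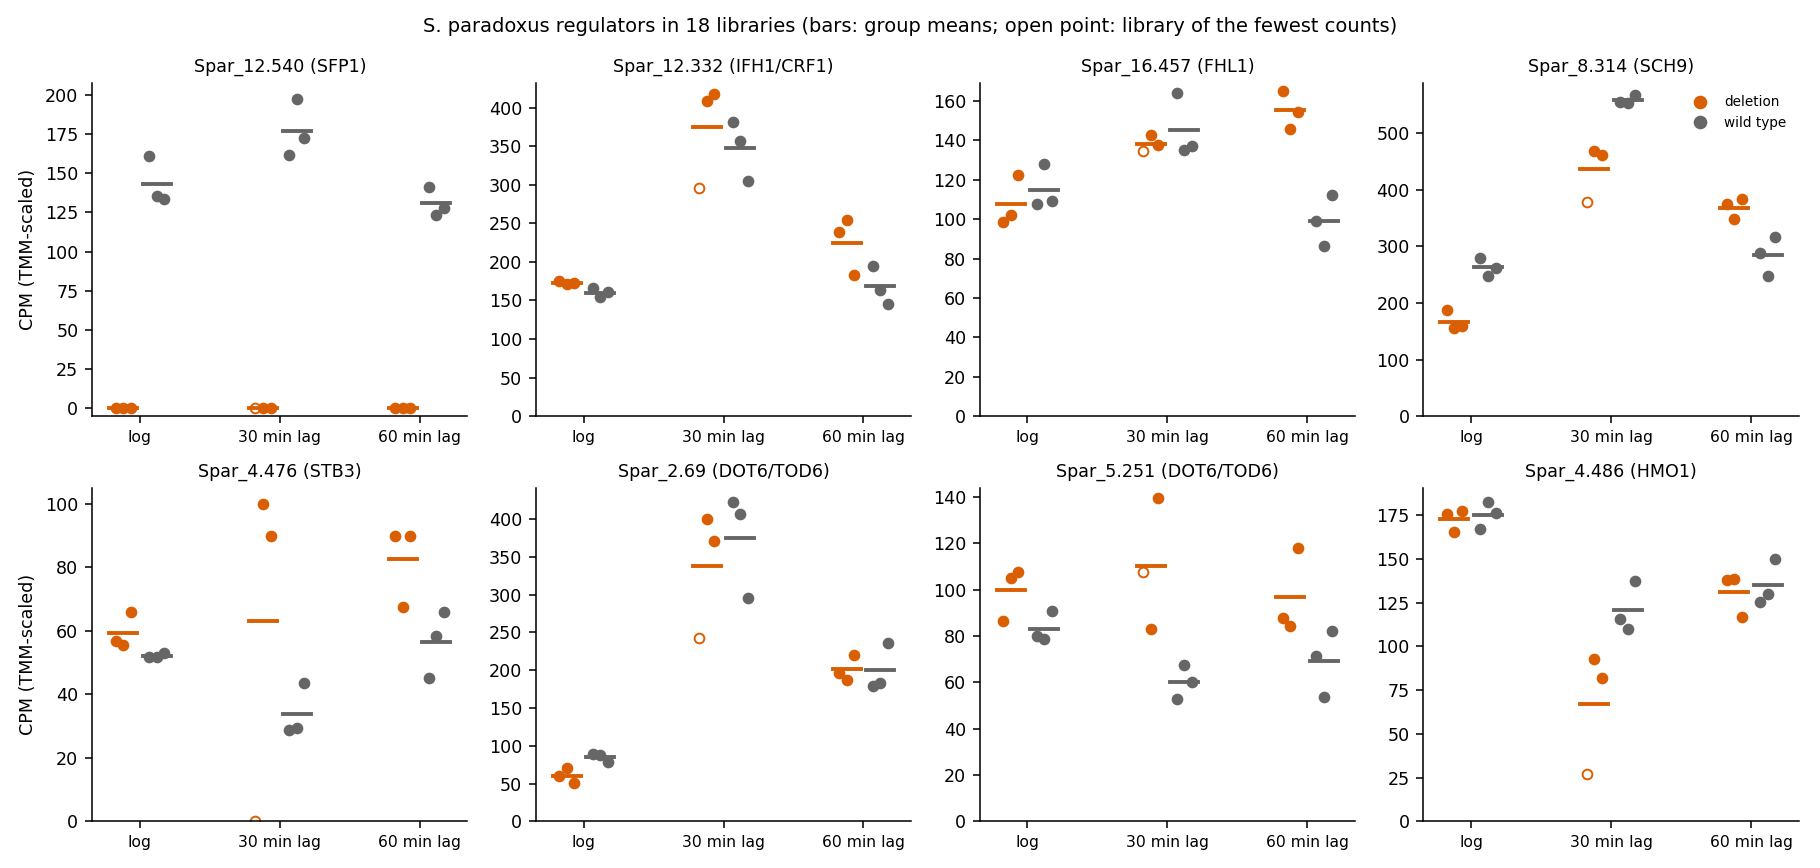
CPM (y axis) of 8 S. paradoxus regulator rows at log phase, 30 min and 60 min, 1 point per library, with deletion libraries left of wild type libraries at each time, a bar at each mean, and the library of 34081 counts as an open point. SCH9 lies at 155 to 187 CPM in the deletion and 247 to 279 CPM in wild type at log phase, but at 347 to 382 CPM in the deletion and 247 to 316 CPM in wild type at 60 min.

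SCH9 and FHL1 were higher in the deletion than in wild type at 60 min, though not at log phase or 30 min. SCH9 had 187, 155 and 159 CPM at log phase, 377, 468 and 460 CPM at 30 min and 374, 347 and 382 CPM at 60 min in the deletion. Set against wild type at the same time, it fell by 0.65 at log phase, fell by 0.29 ± 0.11 at 30 min (adjusted p = 0.0277) and rose by 0.38 ± 0.11 at 60 min (adjusted p = 0.0031), each time without overlap. The call at 30 min ended in 4 of 6 fits without a library and on library size alone (0.0849), and that at 60 min without wild type B (0.0577). The effect of the deletion at 60 min was higher than at log phase by 1.03 ± 0.14 (adjusted p = 9.98e-07; 25.2% of genes passed) and higher than at 30 min by 0.67 ± 0.15 (adjusted p = 0.00196; 15.3% of genes passed). Both differences passed without each library in turn. The effect at 30 min over that at log phase was 0.36 ± 0.14 and did not pass (adjusted p = 0.0552), but passed without the library of 34081 counts at 0.38 (adjusted p = 0.0376). Wild type mating type markers differed between log phase and lag phase. In differences of effect from log phase, here and below, deletion and mating type therefore cannot be told apart.

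FHL1 (Spar_16.457) had 98.4, 102 and 123 CPM at log phase, 135, 143 and 138 CPM at 30 min and 165, 146 and 155 CPM at 60 min in the deletion, against 108, 128 and 109 CPM, 164, 135 and 137 CPM, and 99.3, 86.2 and 112 CPM in wild type. The groups overlapped at log phase and 30 min and not at 60 min, when FHL1 rose by 0.65 ± 0.15 over wild type (adjusted p = 0.00036). That effect was higher than at log phase by 0.75 ± 0.18 (adjusted p = 0.00217), a call kept without each library in turn, and higher than at 30 min by 0.70 ± 0.22 (adjusted p = 0.0256), a call that ended in 5 of 12 such fits. Spar_12.332 had 238, 254 and 183 CPM at 60 min in the deletion, against 195, 164 and 146 CPM in wild type, which overlapped, and rose by 0.40 ± 0.13 (adjusted p = 0.0094), not without deletion B or wild type C.

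Beside SFP1 itself, STB3 showed the largest effect of the deletion on a regulator row at 30 min. It had 0, 99.9 and 89.8 CPM in the deletion, against 28.9, 29.3 and 43.6 CPM in wild type. The 0 is the library of 34081 counts, and the other deletion libraries were both above all wild type libraries. STB3 rose by 1.40 ± 0.27 (adjusted p = 3.73e-05) with that library and by 1.47 (adjusted p = 5.36e-06) without it. The effect at 30 min was higher than at log phase, where it was 0.19 ± 0.14, by 1.21 ± 0.30 (adjusted p = 0.00229; 31.8% of genes passed), and by 1.28 (adjusted p = 0.000468) without that library. At 60 min STB3 had 89.9, 67.7 and 89.97 CPM in the deletion, against 45.3, 58.5 and 66.0 CPM in wild type, and rose by 0.54 ± 0.20 (adjusted p = 0.0272) without overlap, not with DESeq2 (0.076) and not in 4 of 6 fits without a library. The effect at 60 min over that at 30 min was -0.86 ± 0.34 (adjusted p = 0.0868), which passed without the library of 34081 counts at -0.93 (adjusted p = 0.0344).

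Spar_5.251, of the DOT6 and TOD6 orthogroup, had 108, 83.2 and 139 CPM at 30 min in the deletion, against 53.0, 67.7 and 60.3 CPM in wild type, and rose by 0.90 ± 0.23 (adjusted p = 0.00137; ended without deletion C at 0.183). At 60 min it rose by 0.52 ± 0.20 (adjusted p = 0.0274), not with DESeq2 (0.0653) and not without deletion C or wild type B. HMO1 had 26.9, 92.7 and 82.1 CPM at 30 min in the deletion, against 116, 110 and 137 CPM in wild type, and fell by 0.52 ± 0.18 (adjusted p = 0.015), with -0.48 (adjusted p = 0.0256) without the smallest library and no call without deletion C or wild type C. None of these groups overlapped. At 60 min, with 138, 138 and 117 CPM in the deletion and 125, 130 and 150 CPM in wild type, HMO1 did not pass. RAP1 (Spar_14.125) and Spar_4.537, the lower row of the IFH1 and CRF1 orthogroup, did not pass at any of the 3 times.

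Within the deletion strain, 7 of 10 rows passed at 30 min over log phase (6 rose, 1 fell), 6 at 60 min over log phase (5 rose, 1 fell) and 4 at 60 over 30 min (1 rose, 3 fell). Of all genes, 55.8% passed in the first of these (31.5% rose, 24.3% fell), 52.6% in the second (29.8% rose, 22.7% fell) and 22.7% between the lag times (7.97% rose, 14.7% fell). These comparisons share libraries with those above. At 30 min over log phase, SCH9 rose by 1.45 ± 0.11, Spar_12.332 by 1.23 ± 0.12 and Spar_2.69 by 2.64 ± 0.14, and HMO1 fell by 1.04 ± 0.15, all without overlap. The FHL1, RAP1 and STB3 calls at 30 min over log phase ended on library size alone, with DESeq2, with no filter and in the fit on the compared groups alone. At 60 over 30 min, SCH9 fell by 0.31 ± 0.11 (adjusted p = 0.0386), a call that ended in 5 of 6 fits without a library. The call also ended with RLE (0.0655), with DESeq2 (0.102), with no filter (0.304) and in the fit on the compared groups alone (0.0932). On library size alone the direction reversed, with a log2 value of 0.097 (adjusted p = 0.503).

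The effects in other species were also set against that in S. cerevisiae, on orthogroups with exactly 1 gene in both. All 6 of these comparisons share the S. cerevisiae libraries. In those of S. paradoxus and N. castellii, deletion and mating type cannot be told apart, as given above. SCH9 was lower in S. paradoxus than in S. cerevisiae by -0.44 ± 0.13 (adjusted p = 0.00631; 29.5% of 3276 orthogroups passed), with effects of -0.65 and -0.10 in the fits of each species alone. SCH9 was higher in K. lactis by 0.27 ± 0.11 (adjusted p = 0.0277; 53.4% of 2642 orthogroups passed), with 0.16 and -0.10 in those fits, a call that ended on library size alone. FHL1 was lower in C. glabrata delta CAGL0M09955g by -0.53 ± 0.12 (adjusted p = 0.000147; 36.8% of 3281) and in N. castellii delta Scas551.1 by -0.33 ± 0.13 (adjusted p = 0.0422; 42.7% of 3264), the last of which ended with RLE. HMO1 was higher in delta CAGL0M09955g by 0.23 ± 0.10 (adjusted p = 0.042). On library size alone, 1 regulator orthogroup passed for delta CAGL0M09955g, so at least 1 of its FHL1 and HMO1 calls ended there. No regulator passed for delta CAGL0D00682g or delta Scas719.24, where 34.6% and 41.2% of orthogroups did.

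In the authors' deposited table, microarray log ratios at 15 to 90 min, by its column names, are given for the same genes. Outside S. paradoxus, the sequenced libraries analysed here were all of log phase, so the array values are not of the same time. Their base and replication are not stated, and their sign was turned to altered over wild type here. In the authors' deposited table, SFP1 stood between -8.33 and -6.15 in both S. cerevisiae strains, named BY and RM in the table. HMO1 in RM was, in the authors' deposited table, -0.99 at 30 min, -1.18 at 60 min and -0.81 at 90 min, but between -0.41 and 0.52 in BY. STB3 in the authors' deposited table was positive in S. cerevisiae, from 0.03 to 0.93, and in C. glabrata delta CAGL0M09955g, from 0.49 to 0.71, and negative in K. lactis, from -1.74 to -1.09, and S. pombe, from -0.79 to -0.57. In K. lactis, the authors' deposited table has SCH9 between 1.16 and 1.30 and FHL1 between 0.85 and 1.25.

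Other genes of the pathway came from 5 lists. Their rows were taken by name in S. cerevisiae and by orthogroup in the other species, so the sets can differ between species. The partners of Ifh1 in the CURI complex, casein kinase 2 subunits with the ribosome assembly proteins Utp22 and Rrp7, were lower in several deletions: 0 rose and 5 of 6 fell in S. cerevisiae, 0 rose and 4 of 5 fell in S. paradoxus at log phase, 0 rose and 3 of 6 fell in C. glabrata delta CAGL0M09955g, and 0 rose and 4 of 4 fell in K. lactis. Of all genes, 26% fell in S. cerevisiae, 32.6% in S. paradoxus, 18.6% in delta CAGL0M09955g and 33.3% in K. lactis. The list's medians there were -0.61, -0.68, -0.21 and -1.04, beside 0.03, -0.05, 0.02 and 0.01 over all genes tested. UTP22 fell by 0.66 ± 0.07 in S. cerevisiae, by 0.79 ± 0.10 in S. paradoxus at log phase, by 0.59 ± 0.07 in delta CAGL0M09955g, by 0.60 ± 0.09 in delta Scas551.1 and by 1.94 ± 0.08 in K. lactis. In N. castellii delta Scas551.1, 1 rose and 2 fell of 7, where 21.4% of all genes rose and 20.4% fell. In delta Scas719.24, 0 rose and 1 fell of 7, where 14.8% of all genes rose and 11.3% fell. In delta CAGL0D00682g and S. pombe 0 of 6 and 0 of 5 passed, where 0.567% and 10% of all genes did.

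The list of TORC1 effectors and Sfp1 anchoring holds MRS6, whose Rab escort protein binds Sfp1 in S. cerevisiae. MRS6 fell by 0.997 ± 0.07 in S. cerevisiae, by 1.26 ± 0.10 in S. paradoxus at log phase, by 0.68 ± 0.09 in delta CAGL0M09955g, by 1.26 ± 0.09 in delta Scas551.1 and by 1.08 ± 0.07 in K. lactis. The list as a whole had 4 risen and 1 fallen of 15 in S. cerevisiae, 10 and 6 of 25 in S. paradoxus at log phase, 13 and 4 at 30 min and 14 and 2 at 60 min. Taken by orthogroup, it had 26 rows in S. paradoxus, so it was not the same set as in S. cerevisiae. Of all genes, 26% rose and 26% fell in S. cerevisiae, while in S. paradoxus 24.8% rose and 32.6% fell at log phase, 28.3% and 24.6% at 30 min and 25.7% and 25% at 60 min. The list's medians were 0.07, 0.13, 0.70 and 0.56 in that order, beside 0.03, -0.05, 0.13 and 0.04 over all genes. Among those that rose at 30 min were Spar_4.253, of an orthogroup that holds the kinase genes HRK1, RTK1, PRR2 and NPR1, by 2.39 ± 0.33, and Spar_11.207, of an orthogroup that holds COM2, MSN2, MSN4, NRG1 and NRG2, by 2.48 ± 0.30. No name among these was chosen. The Spar_2.221 row of that orthogroup, on the chromosome numbered 2, rose by 2.60 ± 0.42.

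Of the TORC1 complex and its nutrient inputs, 10 of 17 rose and 1 fell in the S. cerevisiae deletion, where 26% of all genes rose and 26% fell, with a median of 0.27 beside 0.03 over all genes. The largest values were those of SEA4 (1.42 ± 0.09) and SLM4 (1.12 ± 0.15), both on chromosome II, and MTC5 (1.10 ± 0.08), on chromosome IV. Of the Ras and protein kinase A genes, 2 rose and 6 fell of 14 in S. cerevisiae, and 1 rose and 9 fell of 15 in S. paradoxus at log phase, where 26% and 32.6% of all genes fell. The list's medians were -0.12 and -0.40, beside 0.03 and -0.05 over all genes. RAS1 fell by 0.95 ± 0.13 in S. cerevisiae, while IRA1, an inhibitor of Ras on chromosome II, rose by 0.83 ± 0.07. Of the Rpd3L deacetylase, which Stb3, Dot6 and Tod6 recruit, 1 rose and 1 fell of 12 in S. cerevisiae, RXT2 (1.61 ± 0.13, chromosome II) and RPD3 (-0.24 ± 0.08), where 26% of all genes rose and 26% fell. In K. lactis 7 rose and 0 fell of 10, where 33.1% of all genes rose, and the difference between the species was not tested.

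Per kilobase of coding length, the regulators of wild type S. cerevisiae spanned a wide range of levels. HMO1 was highest at 317 ± 9.0 CPM per kb, followed by DOT6 at 108 ± 6.3, RAP1 at 60.9 ± 3.1, SCH9 at 50.4 ± 4.7, IFH1 at 48.2 ± 1.9, SFP1 at 39.6 ± 3.1, FHL1 at 33.9 ± 2.1, STB3 at 31.8 ± 3.0, TOD6 at 25.4 ± 1.3 and CRF1 at 5.42 ± 1.57 CPM per kb. SCH9 and IFH1 overlapped, and so did FHL1 and STB3. The ranges of all other neighbours in this order were apart. In wild type S. pombe, sfp1 had the highest level of its 7 rows, at 56.9 ± 10.2 CPM per kb, overlapping sck1 at 49.9 ± 4.5 and ifh1 at 45.4 ± 3.1.

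The genes whose log2 CPM followed a regulator most closely were read in S. paradoxus, over libraries that share time points, depth and, in the deletion, the chromosome numbered 2. These libraries also differ in mating type markers, in wild type between log phase and lag phase, and the part of this was not tested. For SFP1, over the 9 wild type libraries, the closest genes were the rows of CCT3, RSC8 and GAS5, with Pearson r of 0.957, 0.953 and 0.941. Over all 18 libraries, SCH9 was followed by the row of GPD1 and GPD2 (0.960), ECM16 (0.960) and DIS3 (0.959), and these 3 stayed its closest without the smallest library. Spar_12.332 was followed by VTC4 (0.960) and URA2 (0.942). For 6 of the 8 rows read over 18 libraries, 1 or none of the 3 closest genes was kept without the smallest library, so no others are named.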

How the data were processed

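Per the labels, polyadenylated RNA of 57 libraries in 19 groups was sequenced. The authors deposited expected counts per gene, and the submitters' processing notes name Bowtie 1, RSEM 1.2.11, edgeR and the build ASM294v2 without saying which step used which. Between 59.6% and 96.7% of the values in a species' table were whole to within 1e-06, and all were rounded before testing. The 25-base reads can be split between near-identical paralogs, so the rows of paralog pairs are uncertain to that extent, and S. pombe had the lowest share of whole values. The authors also deposited log2 ratios of the sequenced strains and microarray log ratios of unstated base. Their direction and, for sequencing, base were read from the values, and they are used only as the authors' values.

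Totals ran from 34081 to 3447874 counts per library, which sets the counting error of low genes. Counts were analysed with edgeR 4.0.16 in R 4.3.3 (limma 3.58.1): genes kept by filterByExpr, TMM scaling, 1 quasi-likelihood fit per species over all its groups, 22 comparisons, and Benjamini-Hochberg adjustment over all genes tested at 0.05. The 6 differences between species used orthogroups with exactly 1 gene in both. The steps were tested on simulated data with 200 changed genes. Intervals of a level relative to wild type are exact Clopper-Pearson intervals of the share of counts, rescaled to the libraries' sizes, and cover counting error only. Alternatives were other scalings, DESeq2 1.42.0, no filter, the compared groups alone, a replicate block, and leaving out each library; a chromosome II correction was added after seeing the data.

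The members and lists were chosen with earlier results of these data known. Every row found by the member rule is named or counted. From each of 5 further lists, up to 3 genes per deletion could be named, those with the largest absolute log2 fold change among genes that passed and whose mean log2 CPM was 4 or more. Likeness of pattern was Pearson r of log2 CPM with a prior count of 2. Promoter windows were read from RefSeq's S. cerevisiae R64 genome and annotation. The DOT6 and TOD6 row of K. lactis, KLLA0E20031g, and a S. cerevisiae wild type sample labelled 60 min were not analysed here.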

Additional observations from a re-analysis of the deposited data

Results flagged for a closer look

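These differences between effects in 2 times or species passed the test of the difference itself. In S. paradoxus, the effect of the deletion at 30 min exceeded that at log phase by 1.212 (log2) for STB3 and by 0.512 for Spar_2.69. At 60 min it exceeded that at log phase by 0.752 for FHL1, 1.026 for SCH9 and 0.534 for Spar_2.69, and that at 30 min by 0.699 for FHL1 and 0.669 for SCH9. In the differences from log phase, deletion and mating type cannot be told apart. The calls of Spar_2.69 at 30 and 60 min ended in 7 and 8 of 12 fits without a library. They also ended with RLE (log2 values 0.321 and 0.419, adjusted p = 0.218 and 0.114). On library size alone the log2 values were 0.067 and 0.32 (adjusted p = 0.819 and 0.226). With DESeq2 the log2 values were 0.307 and 0.412 (adjusted p = 0.364 and 0.212). With no filter they were 0.201 and 0.382 (adjusted p = 0.499 and 0.157). The 30 min call also ended in the fit on the compared groups alone (log2 value 0.303, adjusted p = 0.273).

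Set against S. cerevisiae, the effect on SCH9 differed by -0.439 in S. paradoxus and by 0.272 in K. lactis, which did not pass on library size alone. The effect on FHL1 differed by -0.526 in C. glabrata delta CAGL0M09955g and by -0.326 in N. castellii delta Scas551.1, which did not pass with RLE. The effect on HMO1 differed by 0.233 in C. glabrata delta CAGL0M09955g. At least 1 of the FHL1 and HMO1 calls in that strain ended on library size alone, where 1 regulator orthogroup passed. In the differences of S. paradoxus and N. castellii from S. cerevisiae, deletion and mating type cannot be told apart.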

How the results depend on the processing

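With DESeq2, 3 regulator rows passed in S. cerevisiae delta sfp1 (edgeR 5), 2 in delta CAGL0M09955g (6 with the deleted gene), 3 between the C. glabrata deletions (5), 1 in K. lactis (3), 1 in S. pombe (2) and 4 in the S. paradoxus deletion at 30 min over log phase (7). Over all genes, DESeq2 called 3 in the HA-tagged strain (0), 1054 in delta CAGL0M09955g (1601), 13 in delta CAGL0D00682g (27) and 902 between these deletions (1403). On library size alone, regulator rows passing were 8 in S. paradoxus at log phase (3), 4 in its deletion at 30 min over log phase, 7 between the N. castellii deletions (4), 6 in K. lactis and 1 in S. pombe. For the differences from S. cerevisiae they were 1 for delta CAGL0M09955g (2), 2 for delta CAGL0D00682g (0), 1 for delta Scas719.24 (0) and 0 for K. lactis (1); RLE scaling gave 0 for delta Scas551.1 (1). Library size alone called 2013 genes in the S. paradoxus deletion at 60 over 30 min (1113) and 2355 between the N. castellii deletions (1289). With no filter, 5 regulator rows passed in S. paradoxus at log phase, 4 in its deletion at 30 min over log phase and 1 in S. pombe. The fit on the compared groups alone gave 4 in that S. paradoxus comparison.

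Direction reversed on library size alone (log2 values in brackets) for Spar_16.457 (0.40) and Spar_4.486 (0.48) at log phase. It also reversed for Spar_8.314 (0.10) in the deletion at 60 over 30 min. The others were Spar_16.457 (-0.13) at 30 min over log phase and NCAS0A11450 (0.30) between the deletions. By construction, that scaling moved the median of all genes, by 0.23 in S. cerevisiae delta sfp1 (2513 rose and 890 fell, against 1517 and 1516 with TMM), 0.50 in S. paradoxus at log phase (2885 and 676, against 1216 and 1601) and 0.22 in K. lactis (2140 and 1064, against 1634 and 1645). Other splits that library size alone moved by over 10 percentage points were, as risen and fallen genes, 1912 and 808 in S. paradoxus at 60 min (TMM 1263 and 1229), 1713 and 300 in its deletion at 60 over 30 min (391 and 722), 775 and 2345 in its deletion at 30 min over log phase (1545 and 1192), 1325 and 710 in its wild type at 60 over 30 min (821 and 974), 1289 and 781 in its wild type at 60 min over log phase (956 and 1021), 1276 and 468 in delta CAGL0M09955g (715 and 886), 1153 and 454 between the C. glabrata deletions (586 and 817), 1672 and 548 in delta Scas551.1 (1140 and 1090), 526 and 1174 in delta Scas719.24 (790 and 603), 2174 and 181 between these (602 and 687), 15 and 4 in delta CAGL0D00682g (18 and 9) and 343 and 237 in S. pombe (169 and 361). For the effect at 30 min over that at log phase the split was 434 and 1272 on library size alone and 703 and 826 with RLE (TMM 987 and 572), for 60 min over log phase 494 and 847, and 610 and 640 (792 and 447), and for 60 over 30 min 728 and 281 on library size alone (368 and 384). RLE gave 1271 and 1533 in the deletion at 30 min over log phase and 1159 and 1363 at 60 min over log phase (TMM 1465 and 1115). With the chromosome II level corrected, Spar_2.69 reversed to -0.60 and -0.56 at 30 and 60 min.

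Leaving out each library gave these ranges of regulator rows passing: 3 to 5 in S. cerevisiae delta sfp1, 2 to 5 at 30 min and 3 to 5 at 60 min in S. paradoxus, 4 to 7 and 2 to 4 in its deletion at 30 min over log phase and 60 over 30 min, 1 to 3 in its wild type at 60 min over log phase, 1 to 3 for the effect at 30 min over log phase and at 60 over 30 min, 3 to 5 and 4 to 7 between the deletions of C. glabrata and of N. castellii, and 0 to 2 in S. pombe. Over all genes the ranges were 0 to 3 in the HA-tagged strain, 737 to 1148 in the S. paradoxus deletion at 60 over 30 min and 278 to 635 in S. pombe.

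Libraries of the same letter did not deviate together (correlations of -0.243 to 0.105), so no pairing by letter was detected. With 3 libraries per group, that cannot show that there was none. With the replicate block, 3 genes passed in the HA-tagged strain and 1 regulator row in S. pombe; of 220 regulator values, 216 kept their direction and side of the threshold, 3 gained a call and 1 lost it. The causes of these changes were not tested. Depth limits the 30 min deletion group most, where 1 library holds 34081 counts.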
